A study of Mus musculus with 16 samples.

Results

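The genes described are 37 genes of fatty acid oxidation and targets of PPAR alpha in mouse liver, measured on Affymetrix whole-transcript arrays. They were taken from a list of names, and each was represented by the probe set that names that gene alone, with the highest mean where a gene had several. All 37 had such a probe set and all 37 passed the filter on dim signals (at or above the 40th percentile of its array on 4 or more arrays), out of 19938 genes with a probe set of their own and 13152 that passed. The series compared livers of strain 129 mice. There were 4 arrays of wild-type livers, 4 of Rassf1a-/-, 4 of Sav1+/- and 4 of Rassf1a-/- Sav1+/- (the double genotype). Rassf1a encodes a scaffold protein that feeds into the Hippo kinase cascade, and Sav1 an adaptor of that cascade's kinases. Sav1+/- livers keep an intact copy of Sav1. The sources used here do not give the age, sex, feeding state or time of day, nor whether each array came from a separate animal, so the p-values measure the spread between these arrays.

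PPAR alpha is a nuclear receptor that binds fatty acids and, paired with RXR, switches on genes that let hepatocytes burn fat in fasting. Long-chain fatty acids enter the cell, are bound, stored in droplets or activated to acyl-CoA, and are carried into mitochondria by the carnitine system for beta oxidation. Very long chains are shortened first in peroxisomes, and omega oxidation by Cyp4a enzymes gives an additional route. Several of these genes, among them Cd36 and Cyp4a14, are known to differ between the sexes in mouse liver.

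Some features of the whole series bear on the values below. Y-linked genes averaged 8.87 to 9.18 (log2 signal) in 5 arrays, where Xist read 2.12 to 4.31, and 2.09 to 4.17 in the other 11, where Xist read 10.34 to 11.47. The 5 arrays of high Y-linked signal were replicate 2 of Rassf1a-/-, replicates 3 and 4 of Sav1+/- and replicates 1 and 2 of the double genotype, with none among the wild-type arrays. Genes of the circadian clock moved with Rassf1a. The mean of 3 genes known to peak together (Arntl, Clock, Nfil3) was 8.11 to 8.73 in wild type and 7.6 to 8.81 in Sav1+/-, against 9.96 to 10.22 in Rassf1a-/- and 9.63 to 10.46 in the double genotype. The targeted gene Sav1 averaged 8.53 ± 0.11 (SD, n = 4) in wild-type livers, 8.61 ± 0.14 in Rassf1a-/-, 7.64 ± 0.37 in Sav1+/- and 7.65 ± 0.27 in the double genotype, while the Rassf1 probe set does not separate the A isoform and checks nothing. Hepatocyte markers averaged 13.21 to 13.53 on every array, and 4 of 5 adipocyte markers were measured, with a mean of 7.34 to 7.51 in wild-type livers and 7.16 to 7.88 over the altered genotypes. Of these Plin1 (7.58 to 8.53), Lep (7.37 to 8.25) and Fabp4 (7.30 to 8.74) passed the filter and Adipoq (5.50 to 6.52) did not. In whole liver, fewer cells of a type and less RNA per cell cannot be told apart.

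PPAR alpha with RXR recognises a direct repeat of the hexamer AGGTCA spaced by 1 base. Promoter windows of 300 bases, from 250 before to 50 after the start of transcription, were matched for 30 of the 37 members in RefSeq's table for GRCm38.p6. Vnn1, Decr1, Cyp4a14, Angptl4, Crat, Cyp4a10 and Acaa2 were not matched. This repeat with any base allowed in place of the T of each hexamer, searched on both strands, was found in 1 of the 30, Fabp1, and in 0.451% of all 27025 genes. The exact repeat was in 0 of the 30 and in 0.0481% of all genes. A single AGGTCA, a search added later, was in 8 members (Cd36, Fabp1, Plin2, Acot3, Acot4, Cpt1a, Acadvl and Acadm), 26.7% of those matched, against 18.1% of all genes. The 250 bases before the start are shown for Fabp1, which carries the repeat, and for 4 acyl-CoA thioesterase genes that neighbour each other on chromosome 12 and differ in their values below. Capitals mark matches to the repeat or the single hexamer on the minus strand of the printed sequence.
Fabp1, chr6:71199629-71199878, + strand: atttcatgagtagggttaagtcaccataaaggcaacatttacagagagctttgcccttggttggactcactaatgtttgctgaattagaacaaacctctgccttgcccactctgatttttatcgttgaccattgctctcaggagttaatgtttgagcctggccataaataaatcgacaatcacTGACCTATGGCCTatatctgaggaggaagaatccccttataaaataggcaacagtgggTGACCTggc
Acot2, chr12:83987611-83987860, + strand: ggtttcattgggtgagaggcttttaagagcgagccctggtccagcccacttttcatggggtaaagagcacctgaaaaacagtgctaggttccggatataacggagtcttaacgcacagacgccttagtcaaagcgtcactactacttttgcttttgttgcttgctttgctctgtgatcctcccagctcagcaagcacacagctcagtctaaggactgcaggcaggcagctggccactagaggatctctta
Acot1, chr12:84009252-84009501, + strand: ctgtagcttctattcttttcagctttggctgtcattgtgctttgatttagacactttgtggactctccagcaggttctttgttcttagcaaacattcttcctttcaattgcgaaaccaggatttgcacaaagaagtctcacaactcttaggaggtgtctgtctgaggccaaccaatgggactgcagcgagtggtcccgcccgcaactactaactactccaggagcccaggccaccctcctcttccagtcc
Acot4, chr12:84038129-84038378, + strand: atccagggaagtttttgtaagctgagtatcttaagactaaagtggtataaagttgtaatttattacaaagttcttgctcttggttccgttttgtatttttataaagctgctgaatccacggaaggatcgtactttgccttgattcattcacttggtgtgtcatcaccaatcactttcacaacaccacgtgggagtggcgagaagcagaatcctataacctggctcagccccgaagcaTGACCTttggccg
Acot3, chr12:84051894-84052143, + strand: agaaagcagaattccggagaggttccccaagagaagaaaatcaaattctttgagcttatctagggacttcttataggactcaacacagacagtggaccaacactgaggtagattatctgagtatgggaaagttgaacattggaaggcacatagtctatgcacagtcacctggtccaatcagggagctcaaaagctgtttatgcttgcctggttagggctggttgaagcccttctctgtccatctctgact
In Fabp1 the repeat lay at base -67 from the start and another hexamer at -9. Acot4 held a hexamer at base -13, and Acot3 held a hexamer just after its start, outside the printed stretch. Acot2 and Acot1 held none in the window. A match is a description of these letters and not of binding.

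Against wild type, most members had lower means in each of the 3 altered genotypes, while few passed the test. Values are log2 signals, differences are on the log2 scale with the SE of the fit, and a gene is called when limma's p, adjusted over all 13152 genes by Benjamini-Hochberg, is under 0.05. In Rassf1a-/- livers 29 of 37 differences were negative (51.7% of all genes), with a median of -0.15 on the log2 scale against -0.01 over all genes, and limma called 0 members, beside 92 of 13152 genes (0.7%). That median was -0.07 without Rassf1a-/- replicate 2 or on the 11 arrays of low Y-linked signal, and -0.04, with 21 of 37 negative, when adjusted for the Y-linked mean. In Sav1+/- livers 32 of 37 were negative (54.1% of all genes), with a median of -0.32 against -0.02, and limma called 0 members and 0 genes in all (0%). In the double genotype 32 of 37 were negative (41.3% of all genes), with a median of -0.32 against 0.05, and limma called 1 member lower, Angptl4, where 0.821% of all genes were called, 0.487% lower. At an unadjusted limma p under 0.05 the counts were 4 lower and 1 higher in Rassf1a-/-, 16 lower and 1 higher in Sav1+/-, and 13 lower and 1 higher in the double genotype. The shares of all genes lower at that level were 4.1%, 7.47% and 6.44%, and higher 6.33%, 1.69% and 7.19%. The arrays did not overlap with wild type, lower, for 2 members in Rassf1a-/- (4.32% of all genes), 7 in Sav1+/- (4.24%) and 4 in the double genotype (4.49%), and, higher, for 1 in Rassf1a-/- (6.55%) and 1 in the double genotype (6.28%). These 3 comparisons use the same wild-type arrays, so their directions are not independent of each other.

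**Figure D1:**
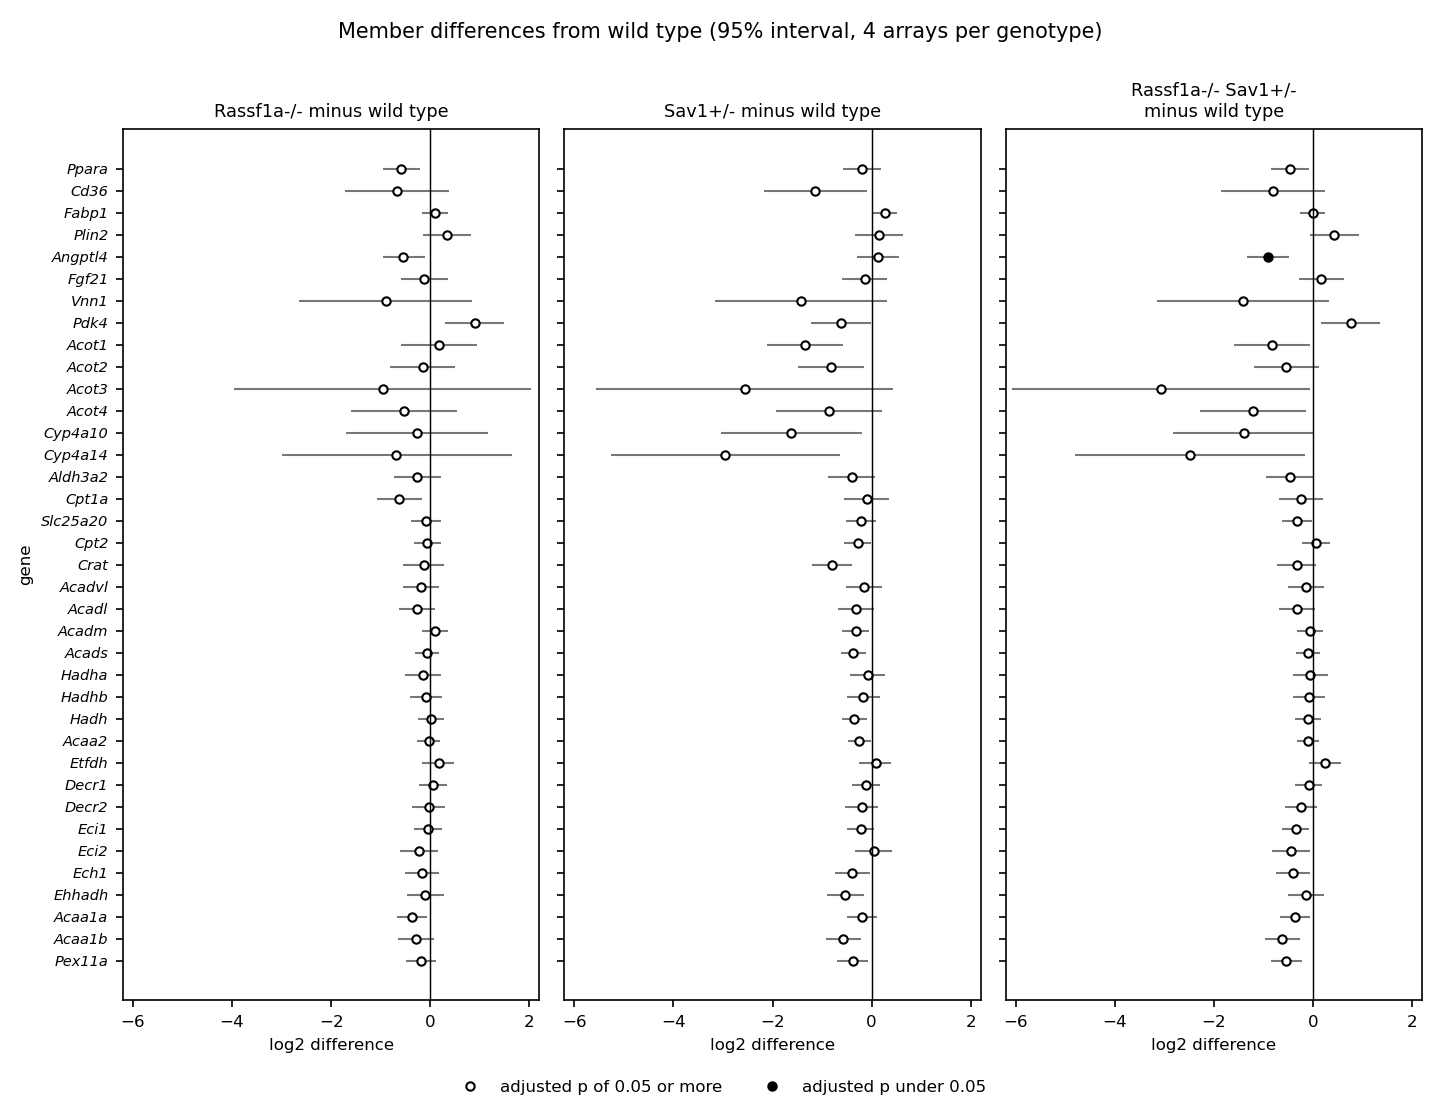
Difference of each of the 37 genes from wild type (x axis, log2 units; one gene per row, ordered by role) in the 3 altered genotypes, 4 arrays per genotype, with 95% intervals from limma. Most points lie left of 0, the intervals of Acot3, Cyp4a14, Cyp4a10 and Vnn1 are the widest, and the filled point, Angptl4 in the double genotype (-0.91), is the member called.

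The arrays of high Y-linked signal held the lowest values of many members. Within genotypes, 9 members fell as the Y-linked mean rose and 0 rose, 24.3% of 37, where 3.02% of all genes fell, 1.69% rose and 4.71% changed in either direction. At an unadjusted limma p under 0.05, 14 were lower and 2 higher (7.66% and 5.65% of all genes), and 23 of 37 slopes were negative (48.6% of all genes). They were Acot3, Acot2 and Acot4, the omega oxidation genes Cyp4a14, Cyp4a10 and Aldh3a2, the fatty acid transporter Cd36, the pantetheinase Vnn1 and the carnitine acetyltransferase Crat. For 8 of them, all but Crat, every array of high Y-linked signal lay below every array of low signal (21.6% of members, 1.6% of all genes). Wild type had no array of high signal, so the comparison of high with low signal within genotypes rests on the other 3 genotypes. The wild-type arrays entered the slope only over their own range of Y-linked means, 2.09 to 3.85. Beside these members, 12 genes known to be higher in male liver averaged 11.60 to 11.83 on the 5 arrays and 6.92 to 7.80 on the others, and 9 known to be higher in female liver 5.31 to 5.61 against 8.55 to 10.12.

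**Figure D2:**
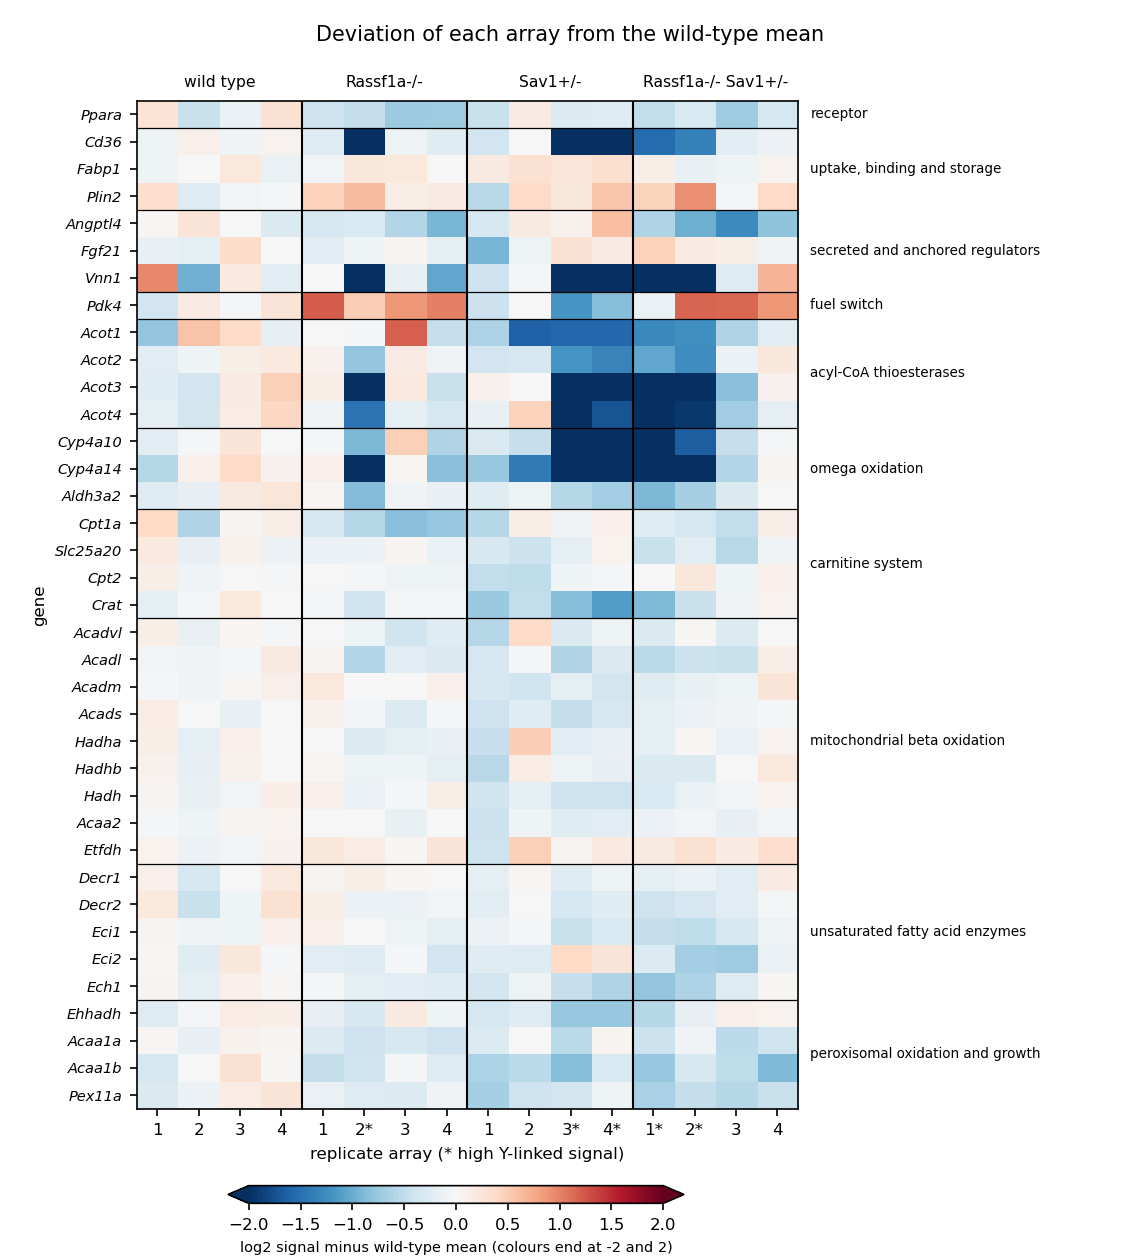
Each array's log2 signal minus the wild-type mean for the 37 genes (rows, grouped by role) and 16 arrays (columns, grouped by genotype; asterisks mark the 5 arrays of high Y-linked signal). Cells of Acot3, Acot4, Cyp4a10, Cyp4a14, Cd36 and Vnn1 are darkest blue in the 5 marked columns, and the mitochondrial genes are pale throughout.

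Ppara itself, the receptor, averaged 11.68 ± 0.36 (SD, n = 4) in wild-type livers, 11.10 ± 0.16 in Rassf1a-/-, 11.49 ± 0.26 in Sav1+/- and 11.22 ± 0.18 in the double genotype. Its arrays read 11.96, 11.23, 11.55 and 11.98 in wild type and 11.27, 11.20, 10.95 and 10.97 in Rassf1a-/-. They read 11.24, 11.85, 11.40 and 11.44 in Sav1+/- and 11.18, 11.38, 10.97 and 11.33 in the double genotype. The lowest wild-type array lay within the ranges of Rassf1a-/- and the double genotype and just below that of Sav1+/-, so all groups overlapped or touched. The difference of Rassf1a-/- from wild type was -0.58 ± 0.18 (SE; limma adjusted p = 0.198), that of Sav1+/- -0.19 and that of the double genotype -0.46 ± 0.18 (adjusted p = 0.262). Between arrays of high and low Y-linked signal Ppara differed by 0.04 ± 0.15 (95% interval -0.29 to 0.36).

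Among the genes of uptake, binding and storage, Cd36 followed the Y-linked signal, and Fabp1 and Plin2 did not pass a test. Cd36, a membrane transporter of long-chain fatty acids, read 11.33, 11.54, 11.37 and 11.50 in wild type and 11.18, 9.33, 11.34 and 11.20 in Rassf1a-/-. It read 11.05, 11.42, 9.36 and 9.36 in Sav1+/- and 9.90, 10.09, 11.21 and 11.31 in the double genotype. The 5 low values, 9.33 to 10.09, are the 5 arrays of high Y-linked signal, and the other 11 lay between 11.05 and 11.54. Taken as high against low signal within genotypes, Cd36 was lower by 3.17-fold (-1.67 ± 0.13 on the log2 scale, SE; limma adjusted p = 5.25e-08). The drop was -1.91 within Rassf1a-/-, -1.88 within Sav1+/- and -1.27 within the double genotype. Fabp1, the cytosolic fatty acid binding protein of hepatocytes, read 12.47, 12.56, 12.76 and 12.42 in wild type, 12.49, 12.78, 12.76 and 12.55 in Rassf1a-/-, 12.73, 12.86, 12.80 and 12.88 in Sav1+/- and 12.67, 12.40, 12.47 and 12.62 in the double genotype. Its 4 means, 12.55, 12.65, 12.82 and 12.54, lay within 0.27 of wild type, with an unadjusted p of 0.04 for Sav1+/- (limma adjusted p = 0.524). Plin2, which coats lipid droplets, ranged from 10.91 to 12.38 over all arrays, and it differed from wild type by 0.34 in Rassf1a-/-, 0.15 in Sav1+/- and 0.43 in the double genotype, none called.

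Of the secreted and anchored regulators, Angptl4 was lower with Rassf1a loss averaged over both Sav1 states, Vnn1 followed the Y-linked signal, and Fgf21 passed no test. Angptl4, a secreted inhibitor of lipoprotein lipase, read 10.84, 11.06, 10.79 and 10.51 in wild type, and 10.46, 10.98, 10.89 and 11.40 in Sav1+/-. It read 10.47, 10.49, 10.21 and 9.89 in Rassf1a-/- and 10.20, 9.83, 9.53 and 9.99 in the double genotype. All 8 arrays without Rassf1a lay at or below 10.49 and the other 8 at or above 10.46, so the sets overlap only at that edge, and the double genotype lay wholly below wild type. Averaged over both Sav1 states, the effect of Rassf1a loss was -0.79 ± 0.14 (1.73-fold lower; limma adjusted p = 0.0059), and in the double genotype against wild type -0.91 ± 0.20 (1.88-fold lower; adjusted p = 0.0403). In Rassf1a-/- against wild type alone it was -0.54 ± 0.20, which did not pass (limma adjusted p = 0.344). The averaged call passed in 24 of 25 alternative fits and was lost on the 11 arrays of low Y-linked signal, at the same size (-0.79 ± 0.17, adjusted p = 0.0653). With 1 array removed at a time, the call of the double genotype stood in 6 of 16 fits. It was lost, at adjusted p values of 0.0523 to 0.158, without any of the 4 wild-type arrays, replicates 1 or 3 of Rassf1a-/-, replicate 3 of Sav1+/- or replicates 1, 2 or 3 of the double genotype.

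Vnn1, which releases the coenzyme A precursor pantothenate, read 11.96, 10.04, 11.19 and 10.79 in wild type and 11, 8.59, 10.84 and 9.95 in Rassf1a-/-. It read 10.58, 10.97, 8.33 and 8.39 in Sav1+/- and 7.74, 8.17, 10.74 and 11.68 in the double genotype. The 5 arrays of high Y-linked signal spanned 7.74 to 8.59 and the other 11 9.95 to 11.96. High against low signal gave a 6.1-fold lower level (-2.61 ± 0.30; limma adjusted p = 1.39e-05). Fgf21, a hormone that liver secretes in fasting, read 7.25 to 8.64 over all arrays, was below the filter level on 1 of them, and differed from wild type by -0.12, -0.14 and 0.17 in the 3 genotypes.

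Pdk4 was the member called higher with Rassf1a loss averaged over both Sav1 states. It encodes the kinase that shuts off pyruvate dehydrogenase and so spares glucose while fat is burned. It read 8.42, 8.96, 8.75 and 9.05 in wild type and 10.01, 9.28, 9.66 and 9.81 in Rassf1a-/-. It read 8.37, 8.78, 7.61 and 7.94 in Sav1+/- and 8.66, 9.96, 9.95 and 9.66 in the double genotype. Every Rassf1a-/- array was above every wild-type array, and 3 of the 4 double arrays were above all arrays of wild type and Sav1+/-. Averaged over both Sav1 states, Rassf1a loss gave 2.2-fold more Pdk4 (1.14 ± 0.20, limma adjusted p = 0.00479), and this call passed in all 25 alternative fits, with adjusted p values of 0.000214 to 0.0147. The difference of Rassf1a-/- from wild type alone was 0.90 ± 0.28 (adjusted p = 0.22). It passed when adjusted for the Y-linked mean (1.09, adjusted p = 0.0247) and on the arrays of low Y-linked signal (1.03, adjusted p = 0.0338). The difference of Sav1+/- from wild type was -0.62 ± 0.28 (limma unadjusted p = 0.0436, adjusted p = 0.532). High against low Y-linked signal gave -0.62 ± 0.19 (limma adjusted p = 0.0824), which did not pass.

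Averaged over both Sav1 states, Rassf1a loss was therefore called for 2 members, Pdk4 higher and Angptl4 lower, 5.41% of 37 beside 2.23% of all genes (1.76% higher, 0.471% lower). The median over the members was -0.09, against 0.03 over all genes, and 23 of 37 were negative (44.9% of all genes). This balance was not stable: the median was 0.01, with 17 of 37 negative, without Sav1+/- replicate 2, -0.02 and 19 without Rassf1a-/- replicate 2, -0.03 and 20 without double replicate 1, and -0.01 and 19 on arrays of low Y-linked signal or adjusted for the Y-linked mean. At an unadjusted limma p under 0.05, 5 were lower and 1 higher (3.6% and 11.7% of all genes). Ppara had the next smallest p (-0.42 ± 0.13, limma adjusted p = 0.0876). It passed with each array centred on its median (adjusted p = 0.0296), with a trended and robust prior (0.04) and without wild-type replicate 2 (0.0396). It did not pass in the other 22 of 25 alternative fits, among them the arrays of low Y-linked signal (0.305). Means of the clock genes moved in the same genotypes as Pdk4 and Angptl4. For 9 clock genes that are known to peak at another time (among them Dbp, Per1, Per2, Per3, Ciart and Nr1d1) the mean was 10.17 to 10.76 in wild type, 10.28 to 10.53 in Sav1+/-, 8.43 to 8.82 in Rassf1a-/- and 8.37 to 9.82 in the double genotype. Nr1d1, among these 9, was instead called higher in the double genotype against wild type (0.90 ± 0.19, limma adjusted p = 0.0363). Single arrays matched less closely. The mean of the 9 was 9.82 on double replicate 4, with Pdk4 at 9.66 and Angptl4 at 9.99. On double replicate 1 it was 9.28, with Pdk4 at 8.66 and Angptl4 at 10.20. Endothelial markers, 4 of 4 measured, averaged 9.03 to 9.41 in wild type, 8.94 to 9.57 in Sav1+/-, 9.0 to 9.82 in Rassf1a-/- and 9.5 to 9.87 in the double genotype. The part of the clock and of these cells in the values of Pdk4 and Angptl4 was not tested.

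**Figure D3:**
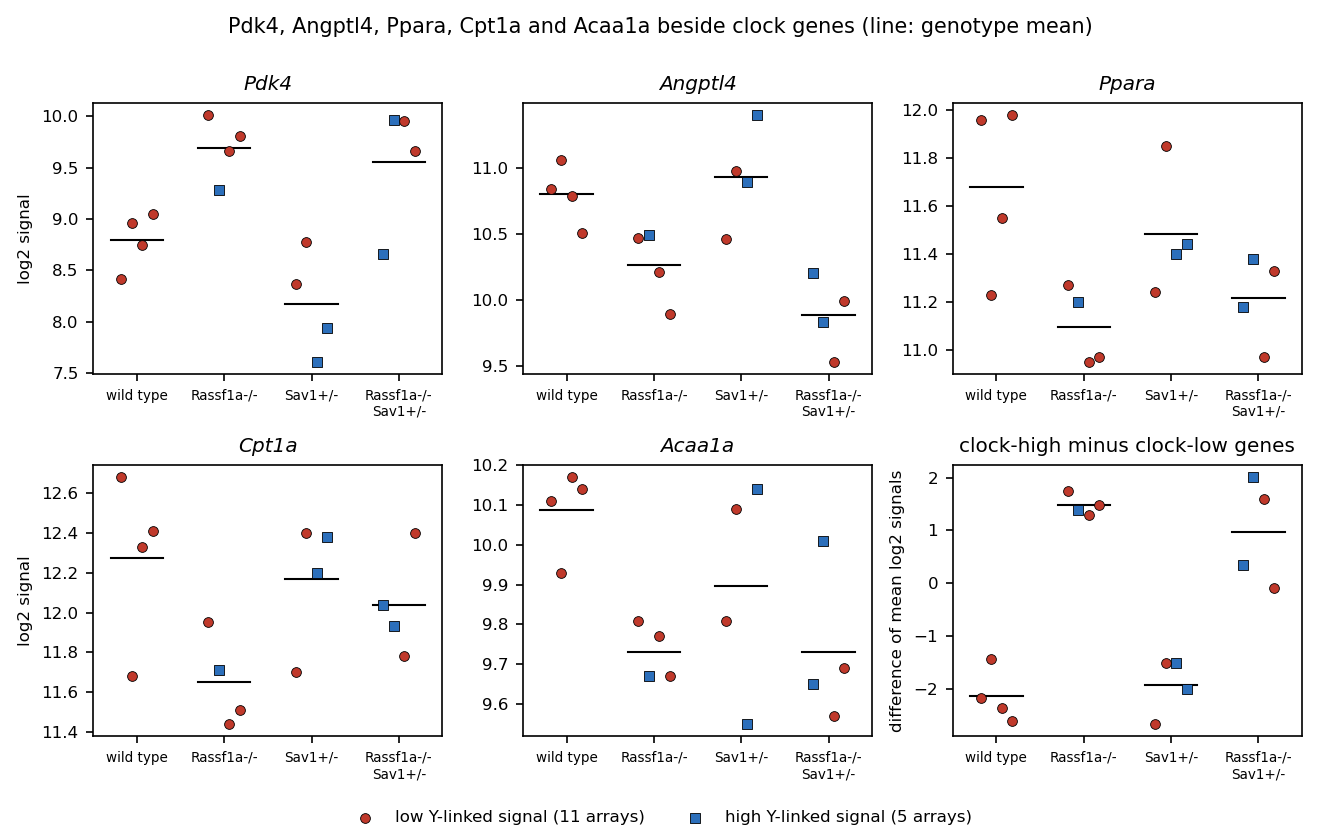
Log2 signal (y axis) of Pdk4, Angptl4, Ppara, Cpt1a and Acaa1a on each array by genotype, with the genotype mean as a line, and, at lower right, the average of 3 clock genes less that of 9 that peak at another time. Pdk4 averages 8.79, 9.69, 8.17 and 9.56 from left to right and Angptl4 10.80, 10.26, 10.93 and 9.89.

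The acyl-CoA thioesterases, which cut acyl-CoA back to free fatty acid and coenzyme A, held Acot3, which had the largest fitted drop of the members on arrays of high Y-linked signal. Acot3, a peroxisomal thioesterase, read 11.70, 11.55, 12.10 and 12.41 in wild type and 12.08, 8.24, 12.13 and 11.49 in Rassf1a-/-. It read 12.03, 11.95, 7.13 and 6.42 in Sav1+/- and 6.22, 6.14, 11.11 and 12.03 in the double genotype. The 5 arrays of high signal lay at 6.14 to 8.24, of which 4 were below the filter level of their array, and the other 11 at 11.11 to 12.41. The fitted difference of high against low signal was -4.86 ± 0.26 (limma adjusted p = 5.92e-10). With the 4 dim readings set to the filter level of their array (7.16 to 7.44 over all arrays), it was -4.19, or 18.2-fold lower. With the readings as deposited, the drop was -3.66 within Rassf1a-/-, -5.22 within Sav1+/- and -5.39 within the double genotype.

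Acot4, its peroxisomal neighbour, read 10.57, 10.39, 10.91 and 11.18 in wild type, 10.69, 9.29, 10.59 and 10.41 in Rassf1a-/-, 10.61, 11.22, 8.77 and 9.03 in Sav1+/- and 8.74, 8.83, 10.06 and 10.57 in the double genotype. Acot2, the mitochondrial member, read 10.84, 10.98, 11.18 and 11.25 in wild type, 11.15, 10.27, 11.23 and 10.99 in Rassf1a-/-, 10.68, 10.71, 9.86 and 9.73 in Sav1+/- and 10.03, 9.82, 10.95 and 11.29 in the double genotype. Both split the arrays the same way as Acot3, with smaller gaps. High against low signal was 3.11-fold lower for Acot4 (-1.64 ± 0.17; limma adjusted p = 4.04e-06) and 1.99-fold lower for Acot2 (-1.0 ± 0.12; adjusted p = 1.6e-05).

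Acot1, the cytosolic member, did not pass the test on the Y-linked mean. It read 7.64, 8.99, 8.81 and 8.26 in wild type and 8.42, 8.39, 9.62 and 7.97 in Rassf1a-/-. It read 7.81, 6.80, 6.86 and 6.86 in Sav1+/- and 7.14, 7.20, 7.82 and 8.21 in the double genotype. In Sav1+/- the lowest array was of low Y-linked signal (6.80), as was the highest (7.81), and in the Rassf1a-/- group the array of high signal (8.39) lay within the others. In the double genotype both arrays of high signal (7.14 and 7.20) lay below both of low signal (7.82 and 8.21). Its slope on the Y-linked mean was -0.11 ± 0.05 per log2 unit (unadjusted p = 0.0355, limma adjusted p = 0.308), which did not pass. Acot1 had the smallest p of all members for Sav1 averaged over both Rassf1a states, a 2.26-fold lower level (-1.18 ± 0.26; adjusted p = 0.0834), and it did not pass. It passed without Sav1+/- replicate 1 (adjusted p = 0.0444) or without replicate 4 of the double genotype (0.0398), and with array weights (0.00958). It did not pass in the other 22 of 25 alternative fits. On 5 arrays Acot1 was below the filter level: replicates 2, 3 and 4 of Sav1+/- and replicates 1 and 2 of the double genotype. Of these, 4 were of high Y-linked signal. The dim readings thus lay only on the Sav1-altered side of the 2.26-fold difference. Its size with them set to the filter level was not computed. The 4 thioesterases are close relatives in a row on chromosome 12, and signal shared between their probe sets was not tested.

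**Figure D4:**
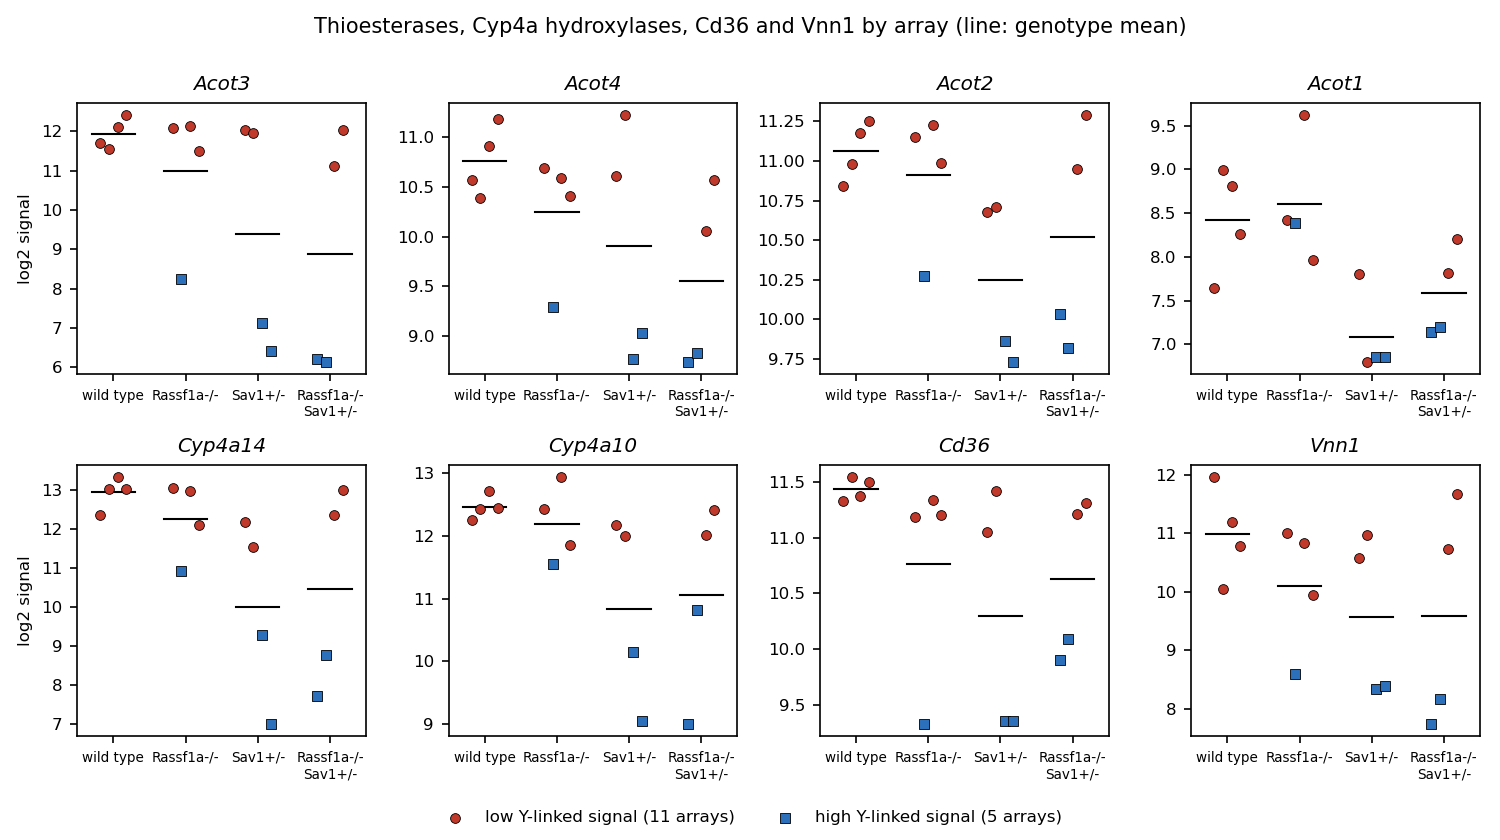
Log2 signal (y axis) of the 4 thioesterases, 2 Cyp4a hydroxylases, Cd36 and Vnn1 on each array by genotype, with red circles for the 11 arrays of low and blue squares for the 5 of high Y-linked signal, and the genotype mean as a line. The squares lie below all circles in every panel but that of Acot1.

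All 3 members of omega oxidation were lower with the Y-linked signal. Cyp4a14, which hydroxylates the far end of a fatty acid, read 12.38, 13.05, 13.34 and 13.04 in wild type and 13.06, 10.92, 12.99 and 12.12 in Rassf1a-/-. It read 12.19, 11.54, 9.28 and 7.0 in Sav1+/- and 7.73, 8.76, 12.37 and 13.00 in the double genotype. The 5 arrays of high signal lay at 7.0 to 10.92, the other 11 at 11.54 to 13.34, and the fitted difference of high against low was -3.46 ± 0.41 (limma adjusted p = 2.08e-05). The reading of 7.0 was below the filter level, and with it set to that level the fitted difference was -3.4 (10.5-fold lower). With the readings as deposited, the drop was -1.8 within Rassf1a-/-, -3.72 within Sav1+/- and -4.43 within the double genotype. All 4 Sav1+/- arrays were below all wild-type arrays, the 2 of low Y-linked signal included, and among arrays of low signal the difference was -1.09 ± 0.33 (unadjusted p = 0.00533, limma adjusted p = 0.48).

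Cyp4a10, of the same family, read 12.26, 12.43, 12.72 and 12.45 in wild type, 12.43, 11.56, 12.94 and 11.86 in Rassf1a-/-, 12.17, 12, 10.15 and 9.05 in Sav1+/- and 9.0, 10.82, 12.01 and 12.42 in the double genotype. High against low signal was 3.93-fold lower (-1.97 ± 0.32; limma adjusted p = 0.000588), with the Rassf1a-/- array (11.56) close to the lowest array of low signal (11.86). Aldh3a2, which oxidises the fatty aldehyde, read 12.50, 12.60, 12.95 and 13.01 in wild type, 12.80, 11.90, 12.70 and 12.62 in Rassf1a-/-, 12.52, 12.67, 12.20 and 12.08 in Sav1+/- and 11.86, 12.10, 12.47 and 12.76 in the double genotype. Its drop was smaller, 1.53-fold (-0.62 ± 0.12; adjusted p = 0.00396).

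Relatives of the Cyp4a and Acot members did not share a direction. Of 15 Cyp4 and Acot relatives that passed the filter, 2 rose and 2 fell with the Y-linked mean (1.69% and 3.02% of all genes): Cyp4a12a and Cyp4a12b had slopes of 1.30 ± 0.07 and 1.19 ± 0.07 per log2 unit (limma adjusted p = 2.13e-09 for both), while Cyp4a31 had -0.37 ± 0.06 (0.000653) and Acot6 -0.20 ± 0.04 (0.0101). Cyp4a14 had -0.60 ± 0.07 on the same scale. Cyp4a12a, known as the male form, is also among the 12 genes known to be higher in male liver, so its rise is not a separate observation.

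In the carnitine system, which moves acyl groups into mitochondria, Crat followed the Y-linked signal and had the smallest p in Sav1+/- livers. Crat, which makes short-chain acylcarnitines, read 11.31, 11.47, 11.72 and 11.52 in wild type and 11.46, 11.10, 11.46 and 11.47 in Rassf1a-/-. It read 10.76, 11.01, 10.66 and 10.38 in Sav1+/- and 10.62, 11.06, 11.44 and 11.58 in the double genotype. All 4 Sav1+/- arrays lay below all wild-type arrays, and the difference was -0.80 ± 0.19 (1.74-fold lower; limma adjusted p = 0.182). With arrays of low Y-linked signal alone it was -0.62 ± 0.17 (adjusted p = 0.44). High against low signal was 1.39-fold lower (-0.48 ± 0.12; adjusted p = 0.0248). The slope on the Y-linked mean did not pass without Rassf1a-/- replicate 2 (0.0589), Sav1+/- replicate 4 (0.0662) or double replicates 1 (0.0836) or 4 (0.0752).

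Cpt1a, the rate-limiting carnitine palmitoyltransferase of the outer membrane, read 12.68, 11.68, 12.33 and 12.41 in wild type and 11.95, 11.71, 11.44 and 11.51 in Rassf1a-/-. It read 11.70, 12.40, 12.20 and 12.38 in Sav1+/- and 12.04, 11.93, 11.78 and 12.40 in the double genotype. The wild-type array at 11.68 lay within the Rassf1a-/- range, and the difference of Rassf1a-/- from wild type was -0.62 ± 0.21 (limma adjusted p = 0.277). Cpt2, of the inner membrane, read 11.96, 11.77, 11.84 and 11.81 in wild type, 11.84, 11.81, 11.75 and 11.74 in Rassf1a-/-, 11.35, 11.33, 11.76 and 11.81 in Sav1+/- and 11.84, 12.07, 11.76 and 11.94 in the double genotype. Its 2 low arrays were the Sav1+/- arrays of low Y-linked signal, so that its order there ran against that of Crat. Slc25a20, the carrier between the membranes' transferases, stayed between 10.02 and 10.77 and differed from wild type by -0.32 ± 0.14 in the double genotype (adjusted p = 0.335).

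The 9 members of mitochondrial beta oxidation moved little. Their differences from wild type ran from -0.26 to 0.17 in Rassf1a-/-, from -0.37 to 0.08 in Sav1+/- and from -0.32 to 0.25 in the double genotype, and limma called 0 of 9 in each. In Sav1+/- livers 8 of 9 were negative, with 4 at an unadjusted p under 0.05: the short-chain and medium-chain dehydrogenases Acads (-0.37 ± 0.12, limma adjusted p = 0.304) and Acadm (-0.32 ± 0.12, 0.399), the hydroxyacyl-CoA dehydrogenase Hadh (-0.35 ± 0.12, 0.348) and the thiolase Acaa2 (-0.25 ± 0.11, 0.519). For Acads, Hadh and Acadm all Sav1+/- arrays lay below all wild-type arrays, together with Acot2, Cyp4a10, Cyp4a14 and Crat making 7 of 37 members (18.9%), where 4.24% of all genes did so. The long-chain dehydrogenases Acadl and Acadvl, the trifunctional protein subunits Hadha and Hadhb, and Etfdh, which hands electrons to the respiratory chain, gave values of -0.32, -0.15, -0.08, -0.17 and 0.08 in Sav1+/-. Among these 9 genes the slope on the Y-linked mean ran from -0.06 to 0, with 0 called.

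All 5 enzymes that deal with unsaturated chains, Decr1, Decr2, Eci1, Eci2 and Ech1, had lower means than wild type in the double genotype. Their medians were -0.04 in Rassf1a-/-, -0.20 in Sav1+/- and -0.35 in the double genotype, and limma called 0 of 5 in each. In the double genotype the isomerases Eci1 (-0.35 ± 0.13, limma adjusted p = 0.237) and Eci2 (-0.45 ± 0.18, 0.274) and Ech1 (-0.41 ± 0.16, 0.28) had an unadjusted p under 0.05. On the arrays of low Y-linked signal their differences there were -0.21, -0.42 and -0.12. Eci1 was lower on all 4 double arrays, 11.42 to 11.83, than on the wild-type arrays, 11.85 to 12.04.

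The 4 members grouped under peroxisomal oxidation and growth were Acaa1b, Pex11a, Acaa1a and Ehhadh. They had negative differences in all 3 altered genotypes, and limma called none of them there. Acaa1b, a peroxisomal thiolase, read 10.45, 10.80, 11.09 and 10.82 in wild type and 10.32, 10.39, 10.75 and 10.54 in Rassf1a-/-. It read 10.16, 10.25, 9.94 and 10.49 in Sav1+/- and 10.03, 10.47, 10.28 and 9.91 in the double genotype. It differed from wild type by -0.58 ± 0.17 in Sav1+/- (limma adjusted p = 0.276) and by -0.62 ± 0.17 in the double genotype (0.102), and the lowest wild-type array overlapped both groups. Between arrays of high and low Y-linked signal it differed by 0.02 ± 0.15, and among arrays of low signal the 2 differences were -0.58 ± 0.21 and -0.70 ± 0.21. Pex11a, which drives peroxisome division, read 11.31, 11.48, 11.74 and 11.86 in wild type, 11.46, 11.34, 11.32 and 11.53 in Rassf1a-/-, 10.94, 11.19, 11.23 and 11.50 in Sav1+/- and 10.95, 11.12, 11.02 and 11.15 in the double genotype. All 4 double arrays lay below all wild-type arrays, at -0.54 ± 0.14 (adjusted p = 0.0907), a difference that passed with arrays centred on their median (0.0276), with array weights (0.0135) and with a trended and robust prior (0.0445). It did not pass in the other 23 of 26 alternative fits, among them all 16 that left out 1 array and the arrays of low Y-linked signal (0.812). The thiolase Acaa1a was lower on all Rassf1a-/- arrays, 9.67 to 9.81, than on the wild-type arrays, 9.93 to 10.17 (-0.36 ± 0.14, adjusted p = 0.367). The bifunctional enzyme Ehhadh differed by -0.53 ± 0.17 in Sav1+/- (adjusted p = 0.325) and was lower on arrays of high Y-linked signal by 0.41 ± 0.12 (adjusted p = 0.0538).

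Averaged over both Rassf1a states, Sav1 heterozygosity gave negative differences in 31 of 37 members (46% of all genes), with a median of -0.23 against 0.02, and 16 were lower and 0 higher at an unadjusted limma p under 0.05 (10.4% and 4.43% of all genes). None passed the adjusted test, where 3 genes in all did (0.0228%). The smallest p after Acot1 belonged to Acaa1b (-0.45 ± 0.12, limma adjusted p = 0.122) and Crat (-0.50 ± 0.14, 0.126). Sav1+/- and double livers held 4 of the 5 arrays of high Y-linked signal. On the 11 arrays of low signal the Sav1+/- difference from wild type had a median of -0.22, with 32 of 37 negative (57.5% of all genes) and 8 members lower at an unadjusted p under 0.05 (6.31% of all genes). The 2 Sav1+/- arrays differed there. The members' median deviation from the wild-type mean was -0.40 on replicate 1 and -0.04 on replicate 2. Single wild-type arrays gave 0.02, -0.12, 0.09 and 0.07. For the double genotype the median on the arrays of low signal was -0.12, with 25 of 37 negative (40.7% of all genes) and 4 lower at that level, from 13 on all arrays (2.22% of all genes). The members' median deviation was -0.26 on double replicate 3 and 0.03 on double replicate 4. The averaged Sav1 effect on the arrays of low signal had a median of -0.13 and 6 members lower at that level, from 16 (3.95% of all genes). Acot3 went from -2.56 to 0.05 in Sav1+/- livers and from -3.07 to -0.37 in double livers, whereas Acot1 went from -1.34 to -1.12 in Sav1+/- livers and Acaa1b was -0.58 in both. For Acot1 the 2 Sav1+/- arrays of low signal were unlike. Replicate 1 read 7.81, within the wild-type range of 7.64 to 8.99. Replicate 2 read 6.80, below its filter level of 7.34, so the -1.12 (SE 0.45) rests on that dim reading. Kupffer cell markers, 6 of 6 measured, averaged 9.35 to 10.30 in wild-type livers, 9.06 to 9.91 in Rassf1a-/-, 9.46 to 10.85 in Sav1+/- and 9.71 to 10.64 in the double genotype, and their part in the Sav1 differences was not tested.

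**Figure D5:**
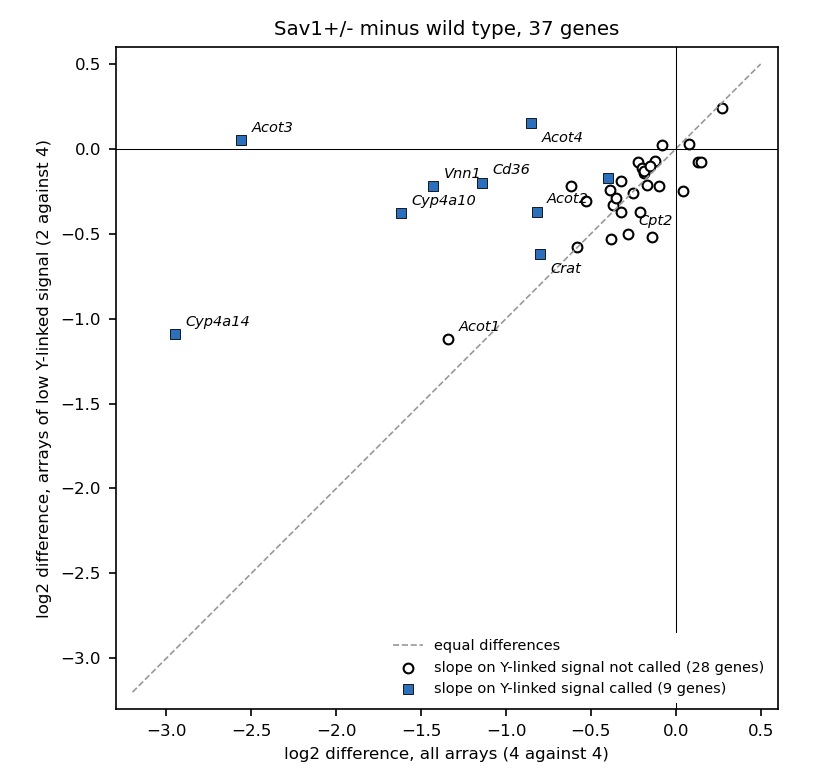
Log2 difference of Sav1+/- from wild type for the 37 genes on all arrays (x axis, 4 against 4) and on the arrays of low Y-linked signal (y axis, 2 against 4), with blue squares for the 9 genes called on the Y-linked slope. Acot3 (-2.56 and 0.05) and Cd36 lie far above the dashed line of equal differences, and Acot1 (-1.34 and -1.12) and Crat (-0.80 and -0.62) lie near it. For Acot1, 1 of the 2 Sav1+/- arrays of low signal read below the filter level (6.80) and the other read 7.81.

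The interaction, the double genotype's departure from the sum of both single effects, was called for 0 members and 0 genes in all (0%). At an unadjusted limma p under 0.05 it was higher for 2 members and lower for 1, beside 5.76% and 3.63% of all genes. The 3 with the smallest p were Crat (0.60 ± 0.27, limma adjusted p = 0.503), Fabp1 (-0.38 ± 0.17, 0.504) and Cpt2 (0.40 ± 0.18, 0.519). The interaction was negative for 8 of 37 members (37.6% of all genes) and positive for 29, with a median of 0.20 against 0.09 over all genes.

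Other genes of the pathway were taken from lists chosen with earlier results of these data known. With Rassf1a loss averaged over Sav1 states, 1.76% of all genes were called higher and 0.471% lower. There, 1 of 18 partners and regulators of PPAR alpha was called, Lpin1, a coactivator and phosphatidate phosphatase, lower (-1.05 ± 0.21, limma adjusted p = 0.0108). Of 18 other known PPAR alpha targets 2 fell, the uridine phosphorylase Upp2 (-1.11 ± 0.18, 0.00201), which also fell in the double genotype against wild type (-1.30 ± 0.25, 0.0181), and Tsc22d3 (-0.56 ± 0.12, 0.0185). Of 4 genes of ketone body synthesis and export 1 rose, the monocarboxylate carrier Slc16a1 (0.72 ± 0.15, 0.0172). Of 20 other mitochondrial genes 2 rose, Pcca of propionyl-CoA carboxylase (0.62 ± 0.14, 0.0249) and Acad8 of branched-chain oxidation (0.35 ± 0.09, 0.0491). In fatty acid uptake and activation (16 genes), peroxisomal oxidation (26 genes) and lipid droplets (17 genes) limma called none. The smallest p there belonged to Fabp5 (0.52 ± 0.24, 0.314), Crot (0.39 ± 0.14, 0.157) and Plin3 (0.33 ± 0.10, 0.0884).

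In the comparisons against wild type and over Sav1, these lists held no called gene but Upp2. The smallest p in Sav1+/- livers belonged to Pex10 among the peroxisomal genes (-0.68 ± 0.15, limma adjusted p = 0.18), and to Retsat among the other targets (-0.78 ± 0.19, 0.182). In the double genotype it belonged to the lipase inhibitor G0s2 among the droplet genes (-0.92 ± 0.23, 0.074) and to the nuclear receptor Esrra among the partners (-0.69 ± 0.17, 0.074).

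With the Y-linked mean, where 1.69% of all genes rose and 3.02% fell, these lists moved both ways. Of 26 peroxisomal genes 3 rose and 2 fell: the sterol carrier and thiolase Scp2 (0.30 ± 0.03 per log2 unit, limma adjusted p = 6.45e-06), Nudt7 (0.21 ± 0.02, 1.08e-06) and Amacr (0.08 ± 0.02, 0.0171) rose, and the transporter Abcd2 (-0.72 ± 0.06, 4.67e-07) and Hacl1 (-0.15 ± 0.02, 3.06e-05) fell. Of 18 partners 1 rose, Nr0b2 (0.20 ± 0.04, 0.00741), and 3 fell: Pparg (-0.14 ± 0.03, 0.0019), the coactivator Ppargc1a (-0.13 ± 0.03, 0.00419) and Klb, the coreceptor of Fgf21 (-0.13 ± 0.02, 0.00233). Of 18 other targets 1 rose, Ephx2 (0.08 ± 0.02, 0.00489), and 2 fell, Vnn3 (-0.19 ± 0.02, 2.89e-05), of the same family as Vnn1, and Upp2 (-0.11 ± 0.02, 0.0103). The mitochondrial list held 2 that fell, Acacb (-0.26 ± 0.05, 0.00617) and Acad9 (-0.09 ± 0.02, 0.0187), and the droplet list 1 that rose, Fitm1 (0.27 ± 0.04, 0.00016).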

How the data were processed

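Total RNA of mouse liver was hybridised to 16 Affymetrix whole-transcript arrays, per the labels' protocols. The authors deposited log2 signals per probe set, and the submitters' processing notes name Affymetrix Expression Console; the sources used here do not give the normalization. Of 35556 probe sets, 21789 named 1 gene in the platform annotation, 1621 several and 12146 none. A probe set was kept if 4 or more arrays read it at or above the 40th percentile of that array, then the one of highest mean per gene (13152 genes). limma 3.58.1 (R 4.3.3) fitted 4 genotype means over all 16 arrays (12 residual df), with 6 contrasts and, in a second fit, a slope on the Y-linked mean (11 residual df). A call is a Benjamini-Hochberg adjusted p under 0.05 over all genes, two-sided. The code was tested on simulated data. The number of arrays limits the precision. The division into high and low Y-linked signal is at the largest gap between arrays. Replicates are numbered in accession order. The search for single AGGTCA hexamers, and the folds with readings below the filter level set to that level, were chosen after seeing the data. The members and gene lists were chosen with earlier results of these data known. Array values are given for Ppara, for each called member and for the 3 members of smallest p per contrast; from other lists, called genes or some of those of smallest p are named. Acaa1a, Eci1 and other members with single values were picked after these were seen. Alternatives covered the filter, probe set choice, normalization, array weights, the prior, the Y-linked covariate, the arrays of low signal and leaving out each array.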

Additional observations from a re-analysis of the deposited data

Results flagged for a closer look

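In 148 groups of 4 arrays (37 genes in 4 genotypes), 8 arrays stood apart from the other 3 of their genotype, with a gap, as a share of the group's range, above Dixon's 95% critical value. That is 5.41% of the groups, and chance flags about 1 in 20. In 3 of them the array was Rassf1a-/- replicate 2, the only array of high Y-linked signal in its group: Cd36 read 9.33 (the others 11.18 to 11.34), Acot3 8.24 (11.49 to 12.13) and Crat 11.10 (11.46 to 11.47). Among the other 5, Acot1 read 7.81 in Sav1+/- replicate 1, above 6.80 to 6.86. Slc25a20 read 10.63 in Rassf1a-/- replicate 3, above 10.44 to 10.46. Acadl read 11.48 in wild-type replicate 4, above 11.23 to 11.26. Hadh read 13.17 in Sav1+/- replicate 2, above 12.93 to 12.95. Acaa2 read 13.43 in Rassf1a-/- replicate 3, where the others read 13.58.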

How the results depend on the processing

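No paired analysis was possible because replicates carry no number in the labels. Of the counts and medians over members under each alternative, 455 stayed within 1.5 times the main count or within 1 SD between arrays (0.152 for a median) and 28 moved. In Rassf1a-/- against wild type the count of called members went from 0 to 1 (Pdk4) with only these genotypes fitted, with the Y-linked covariate and on arrays of low Y-linked signal, and to 2 with array weights (Pdk4, Ppara). In the double genotype it went from 1 to 0 without a filter and on arrays of low Y-linked signal, to 2 with centred arrays or a trended and robust prior (Angptl4, Pex11a), to 12 with array weights, and lay between 0 and 1 over the fits that left out 1 array. Its median moved to -0.13 with the Y-linked covariate and -0.12 on arrays of low signal. For averaged Rassf1a loss the count was 1 on arrays of low signal. The medians of Rassf1a-/- against wild type and of averaged Rassf1a loss moved by less than that SD, which is about as large as or larger than the medians themselves, so this is no sign of stability. For averaged Sav1 it was 19 with array weights and 0 to 1 with 1 array left out. Array weights also called 1231 and 1517 genes in all in the double and averaged Sav1 comparisons, against 108 and 3. They gave the Sav1+/- arrays of low Y-linked signal 0.279 and 0.276, and those of high signal 1.1 and 1.04. Negative interactions numbered 4 to 12 of 37 over the fits without 1 array. The averaged Sav1 effect on Ppara (-0.04) turned to 0.01 with quantile normalization, and lay between -0.11 and 0.01 with 1 array left out (0.00 or 0.01 without wild-type replicate 1 or 4, Sav1+/- replicate 1 or double replicate 3). The cause of these changes was not tested. With 2 arrays of low signal in Sav1+/- and 2 in the double genotype, values on those arrays alone rest on few samples.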
